A study of Mus musculus with 19 samples.

Results

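The 8 genes described here encode GIMAP proteins, the GTPases of the immunity-associated protein family: *Gimap1*, *Gimap3*, *Gimap4*, *Gimap5*, *Gimap6*, *Gimap7*, *Gimap8* and *Gimap9*. They were selected by symbol from the 48795 genes of the expression table, with the difference between the genotypes already known, so their levels in the genotypes are given as a description with no test. The table holds 19 primary p53/MCA sarcomas of mice, 11 from *Rag2*-/- mice and 8 from *Rag2*+/- mice. *Rag2* encodes a subunit of the recombinase that assembles antigen receptor genes. *Rag2*-/- mice therefore lack mature T and B cells but keep natural killer (NK) and myeloid cells, and *Rag2*+/- littermates are immune competent. In both genotypes, mice of 6 to 10 weeks received an injection of Cas9 and a *Trp53* guide, packaged in adenovirus, in the gastrocnemius muscle and then 300 µg of the carcinogen 3-methylcholanthrene (MCA) at 6 µg/µl in sesame oil. The mice received no treatment, and tumors were taken at 70 to 150 mm3. Each tumor gave 1 RNA sequencing library of the whole tissue, so a lower value can come from fewer cells of a type or from less RNA per cell, and these cannot be told apart.

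GIMAP proteins bind GTP through a domain related to that of the septins, and many sit on the membranes of organelles. They are best known in lymphocytes, where several of them keep mature T cells, B cells and NK cells alive, and some are also made by endothelial cells. *Gimap1* is needed for mature T and B cells to persist, and *Gimap5* for peripheral T cells and NK cells. *Gimap3* is the closest relative of *Gimap5* and, like it, has been linked to Bcl-2 proteins. *Gimap4* has been tied to the death of T cells, *Gimap6* binds the autophagy protein encoded by *Gabarapl2*, *Gimap7* can speed GTP hydrolysis by another family member, and *Gimap8* is the largest protein of the family and holds several GTPase domains.

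The 8 genes lie side by side on chromosome 6 of the mouse (GRCm38), from position 48647234 to 48770851, a stretch of 123618 bases in which 6 are on the plus strand and 2, *Gimap6* and *Gimap3*, on the minus strand. In RefSeq's promoter table for GRCm38.p6, all 8 had an entry, and *Gimap8* had 2, for 2 annotated starts. The 250 bases before the start of *Gimap3*, *Gimap4* and *Gimap8* are shown because *Gimap3* and *Gimap4* followed the T cell genes within *Rag2*+/- tumors, as described later, while *Gimap8* is the member at the other end of the cluster. Capitals mark the fixed ETS letters AGGAAG or their complement CTTCCT, and the fixed RUNX letters TGTGGT or their complement ACCACA. ETS and RUNX are families of transcription factors active in blood cells. The windows are chr6:48770852-48771101 on the minus strand, chr6:48684328-48684577 on the plus strand and, for the first start of *Gimap8*, chr6:48646984-48647233 on the plus strand, which holds neither motif.
*Gimap3*: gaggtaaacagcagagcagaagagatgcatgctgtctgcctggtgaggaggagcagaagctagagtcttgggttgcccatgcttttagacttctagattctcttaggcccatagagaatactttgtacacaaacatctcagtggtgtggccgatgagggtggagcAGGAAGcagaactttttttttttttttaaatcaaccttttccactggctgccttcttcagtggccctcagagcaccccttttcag
*Gimap4*: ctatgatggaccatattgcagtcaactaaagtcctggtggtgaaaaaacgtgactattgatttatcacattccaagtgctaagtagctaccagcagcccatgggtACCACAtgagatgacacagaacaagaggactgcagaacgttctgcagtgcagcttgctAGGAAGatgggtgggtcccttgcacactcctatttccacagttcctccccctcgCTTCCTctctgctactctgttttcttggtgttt
*Gimap8*: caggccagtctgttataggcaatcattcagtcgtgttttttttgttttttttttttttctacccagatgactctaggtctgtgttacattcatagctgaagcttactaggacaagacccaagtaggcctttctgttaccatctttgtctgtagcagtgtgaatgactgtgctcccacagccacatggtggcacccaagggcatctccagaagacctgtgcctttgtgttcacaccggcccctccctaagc

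The ETS letters began 85 bases before the start of *Gimap3*, 48 bases before the second start of *Gimap8*, whose window is not shown, and 87 and 33 bases before that of *Gimap4*, whose RUNX letters began 145 bases before it. Over both strands, the ETS letters occurred in the windows of 7 of the 8 members, all but *Gimap6* and for *Gimap8* in 1 of its 2 windows, and in those of 32.3% of the 27025 mouse genes in the table (29.5% of its 32851 windows, all of the same length). The RUNX letters occurred in those of *Gimap1*, *Gimap4* and *Gimap7*, 3 of 8, and in those of 15.9% of all genes. The TATA box letters TATAAA were found upstream of *Gimap6* alone and of 14.3% of all genes, and the GATA letters AGATAA upstream of 0 members and of 11.4% of all genes. The motifs are fixed forms of letters bound by factors active in blood cells and of the TATA box, and a match shows only that these letters are present. Other forms were not searched, so the lack of a match does not show that a site is absent. The window of *Gimap6*, for example, holds the letters GCGGAAGTGA. The bases just past its start were found in 0 annotated transcripts of *Gimap6*.

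All values below are log2 of the authors' upper-quartile normalized FPKM after 0.1 had been added. This scale is corrected for transcript length, and a gene with no reads stands at its lowest possible value. Estimated from the steps between low values, 18 libraries held 25.0 to 33.5 M fragments on genes and the library S41, of a *Rag2*-/- tumor, held 5.17 M. The deposited genotype labels were first set against the genes they bear on. *Rag2* itself was at -0.34 ± 0.74 (SD, n = 11) where it is deleted and at -1.31 ± 0.70 (SD, n = 8) in the heterozygotes, and since the table gives 1 value for the whole gene it does not show whether the deleted part was transcribed. The T cell receptor subunit *Cd3e*, by contrast, was at the lowest possible value in all 11 *Rag2*-/- tumors. The skeletal muscle genes, 10 genes of the tissue around these tumors, had a mean of 8.67 ± 2.12 (SD, n = 11) without *Rag2* and 10.92 ± 2.50 (SD, n = 8) with it, and ranged from 4.87 to 13.71 over all tumors.

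Every member was measured above the lowest value in all 19 tumors and had a mean above -2, the level needed to enter a test. Averaged over the 8 members, *Rag2*-/- tumors stood at 1.25 ± 0.46 (SD, n = 11), from 0.30 to 1.83, and *Rag2*+/- tumors at 1.95 ± 0.68 (SD, n = 8), from 1.06 to 2.79. The 2 ranges overlapped. Of the 8 members, 6 had a lower mean in *Rag2*-/- tumors and 2, *Gimap5* and *Gimap9*, a higher one. The median difference of the members was -0.66, beside 0.07 over the 15703 genes tested, of which 43.9% had a lower mean in *Rag2*-/- tumors.

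*Gimap3* differed most between the genotypes. Its lowest, median and highest values were -1.14, -0.01 and 0.61 in *Rag2*-/- tumors and -0.12, 1.95 and 2.95 in *Rag2*+/- tumors. In 7 of the 8 *Rag2*+/- tumors it lay above every *Rag2*-/- tumor. The remaining tumor, S56, at -0.12, lay among the *Rag2*-/- tumors and also had the lowest T cell and NK cell gene values of its genotype. Its means of macrophage (5.08), dendritic cell (-0.78) and B and plasma cell genes (-1.01) were likewise the lowest of its genotype. Those of skeletal muscle (13.71), endothelial (4.17) and neutrophil genes (2.56) were the highest, so its low *Gimap3* cannot be tied to 1 cell type. Mean levels of -0.08 ± 0.61 (SD, n = 11) and 1.84 ± 1.04 (SD, n = 8) gave a difference of -1.93, or a 3.80-fold higher level in *Rag2*+/- tumors on this scale. The *Gimap3* values rested on an estimated 6 fragments in S41 and up to 404 in the richest tumor.

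*Gimap8* and *Gimap7* followed on this scale, with mean differences of -1.01 and -1.02 but a different spread. *Gimap8* ran from -0.51 over a median of 0.48 to 1.76 in *Rag2*-/- tumors and from 0.90 over 1.46 to 2.09 in *Rag2*+/- tumors. In 9 of the 11 *Rag2*-/- tumors it lay below every *Rag2*+/- tumor, the exceptions being S47 at 1.36 and S46 at 1.76, and its means differed by -1.01. For *Gimap7* the *Rag2*-/- values ran from -2.63 over -0.42 to 1.08 and the *Rag2*+/- values from -1.45 over 1.26 to 1.87, so the genotypes overlapped widely although their means differed by -1.02. *Gimap7* is the member of lowest level in both genotypes, with an estimated 2 to 108 fragments per tumor, and its low values are the least precise of the family. Its highest *Rag2*-/- value, 1.08, is also imprecise, since it came from the shallow library S41 and rested on an estimated 12 fragments. Without S41 the difference of *Gimap7* was -1.18. With 1 added in place of 0.1 before the log2, the differences of *Gimap7* and *Gimap8* were -0.58 and -0.67, beside -0.59 for *Gimap6*, so the order of these 3 depends on the value added.

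*Gimap1*, *Gimap6* and *Gimap4* showed smaller differences, of -0.68, -0.64 and -0.49. *Gimap6* had means of 3.26 ± 0.42 (SD, n = 11) and 3.89 ± 0.41 (SD, n = 8), with the *Rag2*-/- tumors from 2.45 over 3.22 to 3.84 and the *Rag2*+/- tumors from 3.45 over 3.81 to 4.63. For *Gimap4* these were 3.22 ± 0.31 (SD, n = 11), from 2.65 over 3.26 to 3.67, and 3.72 ± 0.67 (SD, n = 8), from 2.80 over 3.71 to 4.65, and 5 of the 8 *Rag2*+/- tumors lay above every *Rag2*-/- tumor. *Gimap1* ran from -0.70 over 1.66 to 2.35 and from 1.06 over 2.11 to 2.77, with S48 lowest of all tumors, and its difference was -0.43 with the muscle genes as a covariate. Its reads and those of *Gimap1os*, annotated on the opposite strand, cannot be told apart by the library kit as stated.

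*Gimap5* and *Gimap9* were the 2 members without a lower mean in *Rag2*-/- tumors. *Gimap5*, the best known survival factor of the family, averaged 1.001 ± 0.70 (SD, n = 11) for *Rag2*-/- against 0.98 ± 1.11 (SD, n = 8) for *Rag2*+/-, and this difference of 0.02 turned to -0.32 in the 15 tumors that the study's figure used. *Gimap5* spanned -0.26 over 1.004 to 1.97 in *Rag2*-/- tumors and -0.51 over 1.08 to 2.55 in *Rag2*+/- tumors, so the *Rag2*+/- tumors held both the lowest and the highest value. *Gimap9* was at 1.26 ± 0.46 (SD, n = 11) and 1.10 ± 1.05 (SD, n = 8). Its *Rag2*-/- tumors ran from 0.38 over 1.25 to 1.99 and its *Rag2*+/- tumors from -0.92 over 1.65 to 1.96. The median and the mean thus differed in direction for *Gimap9*, with S56 and S60 far below the other *Rag2*+/- tumors.

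**Figure D1:**
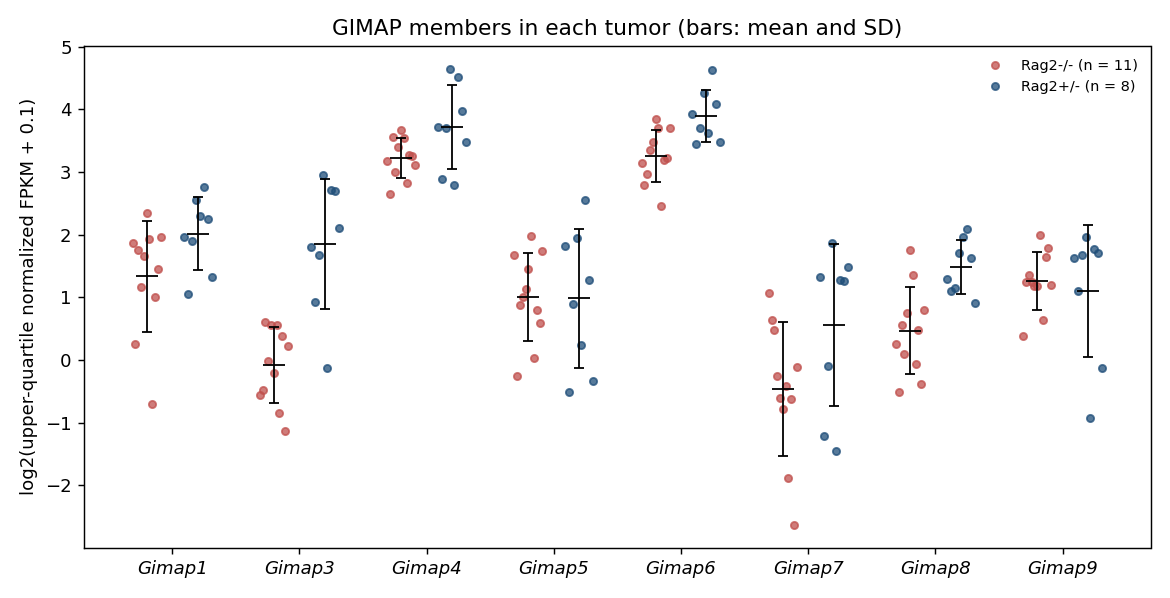
Log2 level of each GIMAP member in every tumor, with *Rag2*-/- tumors in red (n = 11) and *Rag2*+/- tumors in blue (n = 8). Each point is 1 tumor and the black bars are the mean and SD. *Gimap3* had 7 of 8 *Rag2*+/- tumors above all *Rag2*-/- tumors, and *Gimap4* and *Gimap6* were highest in both genotypes.

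In all, 0 of 8 members had values that did not overlap between the genotypes, beside 13 of 15703 genes, or 0.0828%. Leaving out S56 gave 1 such member, *Gimap3*, a setting for which the share over all genes was not counted. By the limma test over all genes, 24 of 15703 genes, 0.153%, were called between the genotypes at an adjusted p under 0.05, each lower in *Rag2*-/- tumors. The members were selected on this contrast, so nothing is read from their overlap and their own limma calls are not given.

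The order of the levels was much the same in both genotypes at its ends. *Gimap6* and *Gimap4* were highest, 3.89 and 3.72 in *Rag2*+/- and 3.26 and 3.22 in *Rag2*-/- tumors, and did not differ beyond the spread of their difference within tumors. The step from *Gimap4* down to *Gimap1*, of 1.70 ± 0.52 (SD, n = 8) in the heterozygous group and of 1.89 ± 0.66 (SD, n = 11) in the other, exceeded that spread and was seen in all 19 tumors. Below it, *Gimap3*, *Gimap8*, *Gimap9* and *Gimap5* followed *Gimap1* in *Rag2*+/- tumors, with *Gimap7* last, and no pair of neighbours there differed beyond its spread. In *Rag2*-/- tumors *Gimap3* stood in the seventh place, ahead only of *Gimap7*, and the step from *Gimap5* to *Gimap8*, of 0.53 ± 0.49 (SD, n = 11), was the only lower step larger than its spread.

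The members varied together across tumors to different degrees. Among the 28 pairs of members, Pearson's r across tumors had a median of 0.67 in *Rag2*+/- tumors (n = 8), from 0.02 to 0.93, and of 0.45 in *Rag2*-/- tumors (n = 11), from -0.31 to 0.85. These are descriptions over few tumors, and the values of 1 tumor share its library, its depth and its tissue makeup. In *Rag2*+/- tumors *Gimap3* went with *Gimap4* (r = 0.92) and *Gimap7* (r = 0.91), while *Gimap8* went with *Gimap1* (r = 0.89) and showed r = 0.02 with *Gimap7* and r = 0.07 with *Gimap3*. In *Rag2*-/- tumors the highest r was that of *Gimap1* with *Gimap6* (r = 0.85), and *Gimap7* showed r = -0.04 with *Gimap4*. Related members share sequence, and reads that fit several of them could have been divided between them, so r between close relatives is uncertain.

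Sex was not in the labels and was read from *Xist* and Y-linked genes. Female tumors numbered 7 of 11 in *Rag2*-/- and 3 of 8 in *Rag2*+/-. The *Gimap3* difference was -1.88 among tumors with high *Xist* and -2.02 among those with low *Xist*, and for *Gimap8* these were -0.97 and -0.91. *Gimap7* differed by -0.33 and -1.81, and *Gimap9* by -0.43 and 0.64, so its direction turned. With *Xist* or the muscle genes as a covariate, the mean difference of the 8 members was -0.68 and -0.64.

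The tumors of a genotype were then compared with one another, which the selection of the members had not used. The mean of 18 T cell genes, of 13 NK cell genes and of 16 endothelial genes was set against each member within *Rag2*+/- and within *Rag2*-/- tumors, 48 relations in all, with two-sided permutation tests of Pearson's r adjusted over all 48. Of these, 8 passed at an adjusted p under 0.05: 6 in *Rag2*+/- tumors and 2 in *Rag2*-/- tumors, each positive. None of the 16 relations with the endothelial genes passed, although 3 of them had an unadjusted p under 0.05. By rank, with Spearman's rho adjusted over the same 48, only 3 of the 8 passed, *Gimap3* and *Gimap4* with the T cell genes and *Gimap4* with the NK cell genes in *Rag2*+/- tumors, and 1 other relation did, *Gimap8* with the T cell genes in *Rag2*-/- tumors (adjusted permutation p = 0.0398). The other 5 had adjusted permutation p of 0.0594 to 0.0984 by rank.

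In *Rag2*+/- tumors the T cell genes went with *Gimap3* (r = 0.94, rho = 0.98, exact permutation p = 3.72e-04, adjusted p = 0.0149), with *Gimap4* (r = 0.94, rho = 0.98, exact permutation p = 6.2e-04, adjusted p = 0.0149) and with *Gimap7* (r = 0.92, rho = 0.79, exact permutation p = 0.00144, adjusted p = 0.0173), over 8 tumors each. Spearman's rho had a permutation p of 3.97e-04 for *Gimap3* and *Gimap4* and 0.0279 for *Gimap7*. Without S53 and S56, the tumors farthest from the median T cell level, r was 0.85, 0.82 and 0.75, with an exact permutation p of 0.0347, 0.0597 and 0.0583, so the relations of *Gimap4* and *Gimap7* rest partly on those tumors. With 1 tumor left out, *Gimap3* and *Gimap4* passed each time, and *Gimap7* missed the threshold without S54, S55 or S56 (r = 0.92, 0.91 and 0.88). *Gimap5*, *Gimap6* and *Gimap9* had r of 0.81, 0.81 and 0.71 with the same genes and did not pass, *Gimap1* had r = 0.57 and *Gimap8* had r = 0.28.

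The NK cell genes went with *Gimap9* (r = 0.89, rho = 0.83, exact permutation p = 0.00131, adjusted p = 0.0173), *Gimap4* (r = 0.87, rho = 0.93, exact permutation p = 0.00312, adjusted p = 0.0214) and *Gimap3* (r = 0.87, rho = 0.81, exact permutation p = 0.00625, adjusted p = 0.0375) in the same 8 tumors. Spearman's rho had an exact permutation p of 0.0154, 0.00223 and 0.0218. Without S55 and S56, r fell to 0.70, 0.75 and 0.60, with an exact permutation p of 0.0611, 0.0694 and 0.208, so all 3 rest on those tumors. Without the same 2 tumors, *Gimap5* had r = 0.94 (exact permutation p = 0.00972, n = 6), *Gimap1* 0.84 and *Gimap6* 0.83, each above those 3, so which members went furthest with the NK cell genes depends on S55 and S56. Leaving out S56 alone ended all 3 calls, at r = 0.74 for *Gimap9*, 0.82 for *Gimap4* and 0.69 for *Gimap3*. *Gimap4* also missed the threshold without S54, S55, S58 or S59, and *Gimap3* without these or S53, at r of 0.84 to 0.87. The T cell and NK cell genes went together in *Rag2*+/- tumors (r = 0.93, rho = 0.90, exact permutation p = 0.00141, adjusted p = 0.00848 over 6 relations, n = 8, and r = 0.87 without the 2 farthest tumors), so the relations with either list cannot be told apart.

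In *Rag2*-/- tumors, whose hosts lack mature T cells, *Gimap3* went with the T cell genes (r = 0.81, rho = 0.63, permutation p = 0.00193, adjusted p = 0.0181, n = 11) and *Gimap7* with the NK cell genes (r = 0.81, rho = 0.75, permutation p = 0.00226, adjusted p = 0.0181, n = 11). *Gimap3* also had r = 0.70 with the NK cell genes in these tumors, which did not pass (adjusted permutation p = 0.0568). There the T cell list averaged -1.54 ± 0.34 (SD, n = 11), from -2.22 to -1.18, with *Cd3e* at the lowest value in all 11 tumors and *Trac* in 8, while *Cd247* at 1.39 and *Lck* at 1.06, genes also used by NK cells, and *Cd4* at 0.51, also made by myeloid cells, stood highest in the list there, below their levels of 2.11, 2.20 and 1.52 in *Rag2*+/- tumors. S48 and S50, the tumors farthest from the median, set much of both relations: without them r was 0.55 for *Gimap3* and 0.50 for *Gimap7*, with permutation p of 0.126 and 0.173. Without S50 alone, *Gimap7* no longer passed (r = 0.75). Among the 7 *Rag2*-/- tumors with high *Xist*, r was 0.84 for *Gimap3* with the T cell genes and 0.77 for *Gimap7* with the NK cell genes, and the 4 others are too few. With the T cell genes, *Gimap7* had r = 0.53 and rho = 0.04, but r = -0.79 without S48 and S50 (permutation p = 0.0125). With the endothelial genes it had rho = -0.77 (permutation p = 0.00736, adjusted p = 0.0589). The T cell and NK cell lists had r = 0.64 in *Rag2*-/- tumors, and r = -0.30 without S48 and S50.

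With the endothelial genes, *Gimap8* had r = 0.82 (rho = 0.76, exact permutation p = 0.0137, adjusted p = 0.0559, n = 8) in *Rag2*+/- tumors and r = 0.66 (rho = 0.44, permutation p = 0.0232, adjusted p = 0.0656, n = 11) in *Rag2*-/- tumors, neither of which passed. Without S56 and S58 the first was 0.53, below that of *Gimap4* (0.81), *Gimap3* (0.74), *Gimap1* (0.66) and *Gimap6* (0.58), and without S46 and S50 the second was 0.63, below that of *Gimap9* (0.68) and *Gimap3* (0.67), so no member is placed first by these values. With the T cell genes, *Gimap8* had r = 0.28 in *Rag2*+/- tumors but r = 0.80 without S53 and S56 (exact permutation p = 0.0639, n = 6). In *Rag2*-/- tumors its r with the T cell genes was 0.73 (rho = 0.82, permutation p = 0.0105, adjusted p = 0.0559, n = 11), above that with the endothelial genes, and 0.80 without S48 and S50. The endothelial genes themselves had a mean of 3.29 ± 0.51 (SD, n = 11) and 3.58 ± 0.34 (SD, n = 8) in the 2 genotypes. In *Rag2*-/- tumors *Gimap8* was highest, at 1.76, in S46, whose endothelial mean of 4.63 was also the highest, but was at -0.38 in S50, whose endothelial mean of 3.50 came next. In *Rag2*+/- tumors it was at 2.09 and 1.96 in S58 and S56, with endothelial means of 3.96 and 4.17. In S56, with the lowest T cell mean of the *Rag2*+/- tumors at 0.00, *Gimap3* was at -0.12 and *Gimap4* at 2.80, each the lowest of its genotype.

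**Figure D2:**
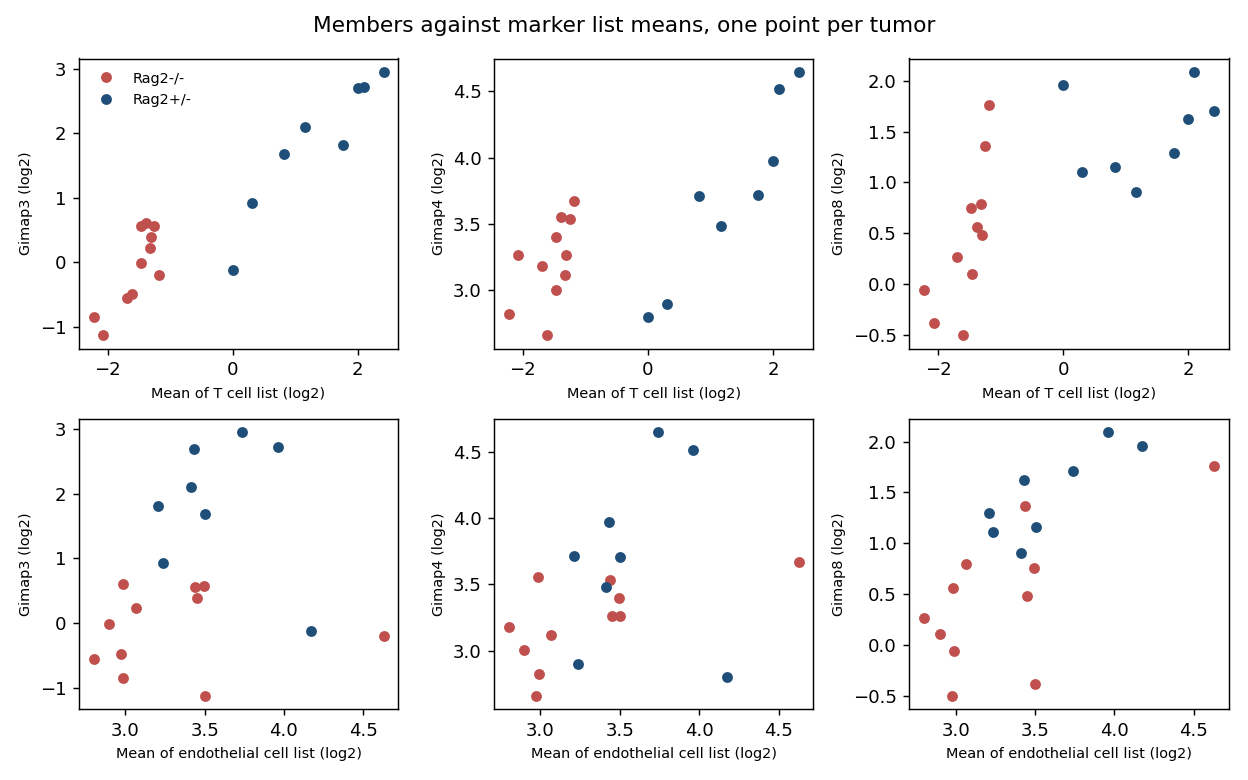
Log2 level of *Gimap3*, *Gimap4* and *Gimap8* against the mean log2 level of the T cell genes (top) and the endothelial genes (bottom), 1 point per tumor, *Rag2*-/- in red and *Rag2*+/- in blue. *Gimap3* rose with the T cell genes among *Rag2*+/- tumors (r = 0.94), and *Gimap8* had r = 0.28 with the T cell genes and 0.82 with the endothelial genes there, or 0.80 and 0.53 without the 2 tumors farthest from the median of each list.

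**Figure D3:**
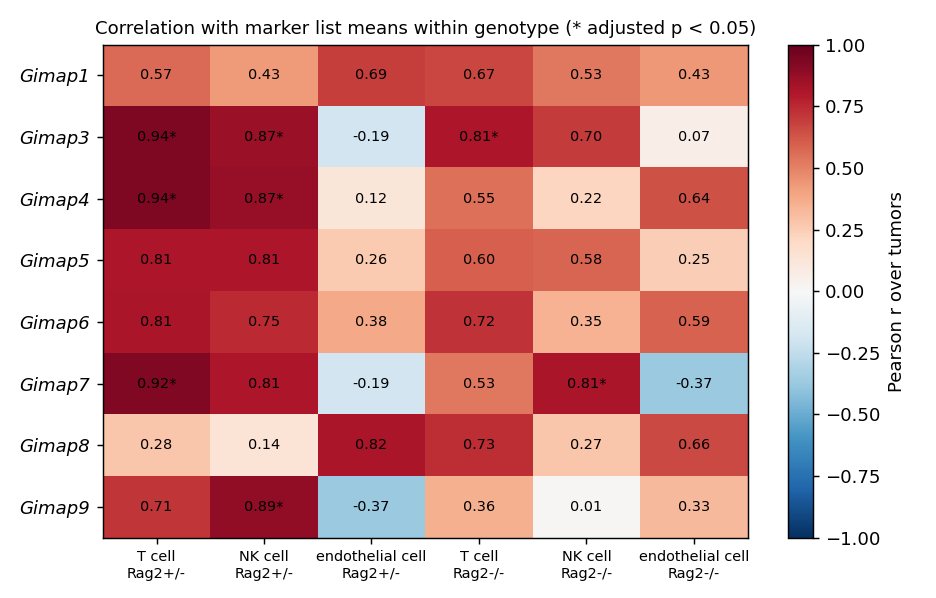
Pearson's r of each member with the mean of the T cell, NK cell and endothelial genes within *Rag2*+/- tumors (n = 8) and within *Rag2*-/- tumors (n = 11), with a star at an adjusted p under 0.05. Stars stand at 8 of the 48 relations, 6 of them in *Rag2*+/- tumors and 0 with the endothelial genes.

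Genes whose level was most like the mean of the 8 members were ranked by r within each genotype. In *Rag2*+/- tumors they were *Ptprcap* (r = 0.98), *Pdcd1* (r = 0.97), *Scimp* (r = 0.97), *Cd8a* (r = 0.97) and *Nfkbie* (r = 0.97), the highest of 12815 genes over 8 tumors. In *Rag2*-/- tumors they were *Epsti1* (r = 0.93), *BC028528* (r = 0.92), *Fgf1* (r = 0.91), *Sat1* (r = 0.90) and *Nqo2* (r = 0.89), the highest of 12836 genes over 11 tumors. *Pdcd1* and *Cd8a* are genes of T cells. *Scimp*, with the same rounded r as *Cd8a*, is placed by the paper with antigen presentation genes of myeloid cells. Whether the ranking reflects T cells or immune cells in general was not tested. The ranking took genes with a mean above 0 in the genotype, which left out most T cell receptor genes in *Rag2*-/- tumors.

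Genes of other cell types and pathways were set beside the members. Of the 18 T cell genes, 10 were lower in *Rag2*-/- tumors by limma, with a median difference of -2.87 beside 0.07 over all genes. The T cell receptor genes *Trac*, *Cd3e* and *Cd3g* differed by -5.32 ± 0.37 (SE), -4.80 ± 0.36 (SE) and -4.59 ± 0.39 (SE), with limma adjusted p of 2.22e-08, 5.39e-08 and 3e-07. For B and plasma cells, 8 of the 14 listed genes could be tested and 3 were lower, the antibody chain genes *Igkc* (difference -9.73) and *Jchain* (-7.30) and the receptor subunit *Cd79a* (-2.27). In *Rag2*-/- tumors the means of *Trac*, *Cd3e*, *Cd3g*, *Igkc*, *Jchain* and *Cd79a* all lay below -2, the level needed to enter the test. These genes entered it only through their level in *Rag2*+/- tumors, so the direction of any call was fixed beforehand. With a mean above 0 needed instead, only 4 genes in all were called. The size of the T cell receptor differences is set by the value added before the log2, since *Cd3e* stood at the lowest value in all 11 *Rag2*-/- tumors, *Trac* in 8 and *Cd3g* in 5. With 1 added in place of 0.1, *Trac*, *Cd3e* and *Cd3g* differed by -2.57, -1.96 and -2.20, and with 0.01 by -7.89, -8.05 and -6.45. The same holds for *Igkc*, *Jchain* and *Cd79a*, which differed by -6.67, -4.30 and -0.67 with 1 added and by -12.56, -9.79 and -3.88 with 0.01.

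Over all genes tested, 2470 of 15703, or 15.7%, had an unadjusted limma p under 0.05, the background for the counts of this kind that follow. This background is itself unstable: it ran from 1167 to 4705 genes with 1 tumor left out and was 751 with the muscle genes as a covariate. None of the 13 NK cell genes passed limma, and 6 had an unadjusted p under 0.05, all with higher means in *Rag2*-/- tumors. The median difference was 0.86, and *Xcl1* and *Gzma* differed by 2.15 ± 0.60 (SE) and 1.96 ± 0.48 (SE). The endothelial genes, 0 of 16 called and 1 at p under 0.05, had a median difference of -0.31, with *Vwf* at -0.65 ± 0.37 (SE) and *Sox17* at -0.60 ± 0.38 (SE). Among 10 genes of resting lymphocytes, 0 were called and 2 had p under 0.05, with 7 lower and 3 higher means in *Rag2*-/- tumors and a median difference of -0.27. The largest differences there were those of *Satb1* at -1.30 ± 0.45 (SE) and *Il7r* at -0.85 ± 0.51 (SE). In macrophage, neutrophil, dendritic cell and muscle lists, 0 genes were called, and 1 of 12, 0 of 8, 0 of 9 and 8 of 10 had p under 0.05. *Fcgr1* and *Mrc1* of macrophages differed by 0.71 and 0.59, *Ngp* and *Mmp8* of neutrophils by 1.31 and -1.28 (7 of the 8 neutrophil genes had a higher mean in *Rag2*-/- tumors, with a median difference of 0.95), *Batf3* and *Cd209a* of dendritic cells by 0.63 and -0.63, and *Acta1* and *Myl1* of muscle by -2.42 and -2.41, none of which passed. With the muscle genes as a covariate, these differences were -0.15 for *Vwf*, -0.19 for *Sox17*, -0.46 for *Satb1*, -0.29 for *Il7r*, 0.27 for *Mrc1*, -0.49 for *Mmp8*, -0.24 for *Acta1* and -0.09 for *Myl1*, each smaller, and 2.56 for *Ngp*, which was larger. Under it *Fcgr1*, *Cd209a*, *Gzma* and *Xcl1* moved by less than 1.5 times and *Batf3* to 0.37. That of *Batf3* turned to -0.08 in the 15 tumors of the study's figure. In these 15 tumors the differences of *Fcgr1*, *Mrc1* and *Cd209a* shrank to 0.37, 0.30 and -0.34, while that of *Il7r* grew to -1.43. With 1 added in place of 0.1, those of *Xcl1* and *Ngp* were 1.15 and 0.43.

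Proteins that GIMAPs are known to work with were looked at as a list of 12 genes: Bcl-2 family members (*Bcl2*, *Bcl2l1*, *Mcl1*, *Bax*, *Bak1*, *Bcl2l11*), autophagy genes of the *Gabarap* and *Map1lc3* families, and *Gsk3b*. By limma 0 of the 12 were called and 1 had p under 0.05, with a median difference of 0.04, beside 0.07 over all genes, 6 of 12 on each side of 0. *Map1lc3a* differed by -0.86 ± 0.44 (SE) and *Gabarapl2*, the partner of *Gimap6*, by -0.51 ± 0.22 (SE), with adjusted p of 0.332 and 0.31. With the muscle genes as a covariate these differences were 0.02 and -0.09. Interferon-inducible GTPases are another family of immune GTPases, made by many cell types. Of 13 of them 0 were called and 0 had p under 0.05, with a median difference of 0.27; *Gbp11* and *Gbp10* differed by 0.74 ± 0.64 (SE) and -0.69 ± 0.91 (SE), and by 1.59 and 0.97 with the muscle covariate or 0.16 and -1.38 in the 15 tumors.

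The 10 annotated genes nearest to the cluster, 5 on each side, were looked at in the same way. Only 4 had a mean above -2, and 0 of them were called by limma. Since the members' own calls are not given, this does not show whether the difference reached beyond the cluster. The difference of *Zfp775* was larger in size than those of *Gimap1* (-0.68), *Gimap6* (-0.64) and *Gimap4* (-0.49). *Zfp775*, 24.0 kb before the cluster, differed by -0.79 ± 0.33 (SE, adjusted p = 0.31) and *AI854703*, 13.5 kb before it, by -0.15 ± 0.32 (SE, adjusted p = 0.795). Behind the cluster, *Tmem176b* and *Tmem176a*, 63.0 and 70.1 kb away, differed by 0.18 ± 0.25 (SE) and 0.23 ± 0.26 (SE), with adjusted p of 0.678 and 0.604. *Gm45021*, *Gm44965*, *Gm38804*, *Gm30781*, *Gm17834* and *Gm44764* were too low to test. Inside the cluster, the non-member genes *Gimap1os*, *Gm44226* and *4833403J16Rik* differed by -0.74 ± 0.48 (SE), -0.36 ± 0.28 (SE) and -0.31 ± 0.43 (SE), and 0 of 3 were called. The other 2 were too low to test. *Gm44262* was at the lowest value in every tumor. *Gm28053*, a read-through gene model on the plus strand from position 48718607 to 48752644 that overlaps *Gimap7*, *Gimap1* and *Gimap5*, was at -2.76 ± 0.997 (SD, n = 11) and -1.32 ± 1.89 (SD, n = 8), reached 1.33 in 1 *Rag2*+/- tumor and differed by -1.44. How the reads were divided between it and these 3 members is not given in the sources used here, so the levels of *Gimap1*, *Gimap5* and *Gimap7* are uncertain to that extent.

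**Figure D4:**
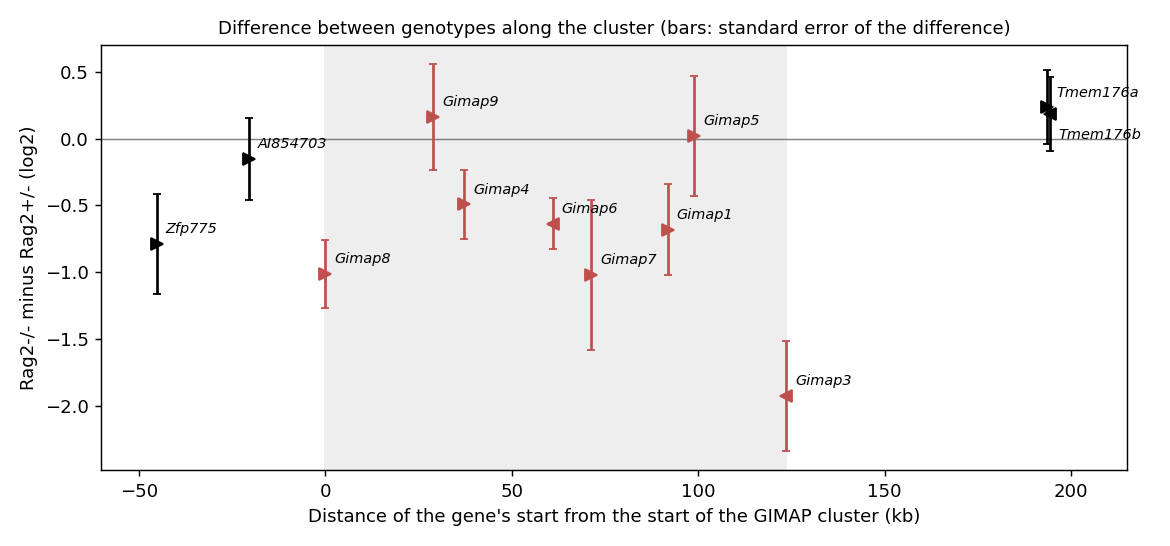
Difference in mean log2 level, *Rag2*-/- minus *Rag2*+/-, of each member (red) and each tested neighbour (black) by the distance of its start from the start of the cluster in kb. Bars are the standard error of the difference, triangles point along the strand of the gene and the grey band is the cluster. *Gimap3* at the end of the cluster has the largest difference, -1.93, and *Gimap5* the smallest, 0.02.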

How the data were processed

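RNA of 19 tumors was sequenced, 1 library per tumor. The authors deposited log2 values: Array Studio's Omicsoft aligner had placed the reads on the mouse genome, genes had been quantified with Ensembl models, and FPKM had been upper-quartile normalized, with 0.1 added before the log2. Count tests were not used, since no counts are given. Of 48795 Ensembl IDs, 48349 matched a symbol. The GIMAP members and all gene lists were chosen with earlier results of these data known. Replicates are separate tumors, numbered in accession order. Genes with a mean above -2 were fitted with limma 3.58.1 (R 4.3.3) with a trend on intensity, and p was adjusted by Benjamini-Hochberg and called at 0.05. Correlations used all 40320 pairings for 8 tumors and 100000 resamples for 11, adjusted over 48 relations. Depth was estimated from GENCODE transcript lengths. Named genes are the members, for each list the 3 called genes of largest difference, or else the 2 of largest difference, the 10 nearest neighbours, and the 5 genes most like the members' mean. Alternatives were the 15 tumors of the study's figure, each tumor left out, pseudocounts of 1 and 0.01, a median shift, quantile normalization, other filters, no trend, *Xist* or muscle covariates, and list medians. The scripts were tested on simulated data. Tables and permutations were made with scipy 1.17.1, pandas 2.3.3 and numpy 2.4.6 in Python 3.11.15.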

Additional observations from a re-analysis of the deposited data

How the results depend on the processing

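The mean difference of the 8 members, -0.70, stayed between -0.94 and -0.51 over 7 alternatives and between -0.83 and -0.58 with each tumor left out. *Gimap5* and *Gimap9* have no stable direction: their differences were -0.32 and -0.0015 in the 15 tumors of the study's figure, *Gimap5* was at -0.0336 with a pseudocount of 1, and with 1 tumor left out they ran from -0.20 to 0.24 and from -0.13 to 0.28. Members without overlap numbered 1, *Gimap3*, in the 15 tumors, and 0 to 1 with each tumor left out, 1 without S56 (*Rag2*+/- replicate 5). The share of all genes without overlap was not counted in these settings, so these counts have no background and nothing is read from them. *Gimap3*, *Gimap7* and *Gimap8* differed by -1.31, -0.58 and -0.67 with a pseudocount of 1, beside -1.93, -1.02 and -1.01 as reported. Genes called numbered 52 in the 15 tumors, of which 12 were higher and 40 lower in *Rag2*-/- tumors, 4 with a mean above 0 and 23 to 47 with each tumor left out, 47 without S51 (*Rag2*-/- replicate 9). Relations with the marker lists that passed numbered 5 in the 15 tumors, 17 with a pseudocount of 1 and 5 to 13 with each tumor left out, 5 without S54, S55 or S56 and 13 without S60. *Gimap3* and *Gimap4* with the T cell genes in *Rag2*+/- tumors and *Gimap3* with them in *Rag2*-/- tumors passed under all 6 other settings. They also passed with each tumor left out, but only tumors of the same genotype, 8 *Rag2*+/- or 11 *Rag2*-/-, can change r. The *Rag2*-/- relation did not pass by rank (adjusted permutation p of Spearman's rho = 0.0984). Its permutation p was 0.126 without S48 and S50, and that of *Gimap4* in *Rag2*+/- tumors was 0.0597 without S53 and S56. The other 5 relations missed the threshold under at least 1 setting or with at least 1 tumor left out. Partner genes and cluster neighbours called stayed at 0 under every alternative run. Depth limits *Gimap7* most, with an estimated 2 fragments in its lowest tumor. No paired analysis was possible because nothing in the labels ties tumors of the genotypes into pairs.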
